A study of Mus musculus with 6 samples.

Results

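Cholesterol efflux and its control by the liver X receptors (LXR) were followed through 10 genes in cultured mouse vascular smooth muscle cells that overexpressed the microRNA miR-128. The genes were chosen by name for their role: the receptor genes Nr1h3, Nr1h2 and Rxra, the transporter genes Abca1, Abcg1 and Abca7, the apolipoprotein gene Apoe, the LXR target Mylip, and the lysosomal cholesterol genes Npc1 and Npc2. The Illumina bead arrays carried 25697 probes and 16593 gene symbols. All probes annotated to one of the 10 genes were taken, which gave 12 probes of 8 genes, while Nr1h2 and Npc1 had no probe under their symbol in the annotation used and were not analysed here. Of the 12 probes, 3 were detected on all 6 arrays (Rxra, Npc2 and 1 probe of Abca7), and 5 were detected on none. A probe counted as detected where its detection p-value, which compares it with the negative controls of its array, was under 0.05.

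The cells were primary vascular smooth muscle cells of C57BL/6J mice aged 8 weeks. All of them received lentivirus, puromycin for 2 days, and RNA collection at 5 days, so that infection and selection were shared by treated cells and controls. The mir128 group carried miR-128 and the groups shScr1 and shScr2 carried scrambled miRNA, with 2 biological replicates, A and B, in each. The labels do not tell how shScr1 and shScr2 differ, which promoter the vector used or which animals gave each culture. No probe carried the symbol Mir128-1 or Mir128-2, so the level of miR-128 itself could not be checked on these arrays.

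LXRs are nuclear receptors that sense oxidised cholesterol. LXR alpha (Nr1h3) and LXR beta (Nr1h2) bind DNA as partners of the retinoid X receptors, of which Rxra encodes the alpha form, and switch on genes that move cholesterol out of the cell. ABCA1 and ABCG1 load cholesterol onto lipoproteins, apolipoprotein E accepts it, MYLIP marks lipoprotein receptors for degradation, and NPC1 and NPC2 release cholesterol from lysosomes. In smooth muscle cells of the artery wall this pathway is known for limiting the storage of cholesterol that makes foam cells. Published work in human cells has named ABCA1, ABCG1 and RXRA among the targets of miR-128.

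The mature sequences of miR-128, from RefSeq (GRCm38.p6), show what the virus was labelled to deliver. Capitals mark the seed, bases 2 to 8, with which a microRNA pairs with its targets. Both mouse loci give the same 3p strand, at chr1:128202404-128202424 on the plus strand and chr9:112118644-112118664 on the minus strand. The 5p strands differ between the loci outside a shared seed. The labels do not tell which locus the virus carried.
mmu-miR-128-3p: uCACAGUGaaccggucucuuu
mmu-miR-128-1-5p: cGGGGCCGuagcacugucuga
mmu-miR-128-2-5p: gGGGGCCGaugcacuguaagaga

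The DNA element read by an LXR and RXR pair is a repeat of AGGTCA with a spacer of 4 bases. A search of both strands, allowing 3 of the 12 fixed letters to differ, found it in 2 of 12 promoters of 8 member genes, 1 of Abca1 and 1 of 2 for Rxra, while 21.9% of all 32851 promoters of that length (250 bases before and 50 after the start) held it. Abcg1 had no promoter entry, and Npc1 was left out of the search of member promoters. The 100 bases before each of those starts are shown, since these were the member promoters with a match. Both matches differ from the repeat at 3 of the 12 fixed letters, the most allowed. Capitals mark the match, which reads on the strand opposite to the gene for Abca1 and on the gene's own strand for Rxra. The Abca1 stretch is chr4:53159896-53159995 (minus strand) and the Rxra stretch chr2:27709192-27709291 (plus strand), both in GRCm38.p6. A match in letters is a description and not a shown binding site.
Abca1: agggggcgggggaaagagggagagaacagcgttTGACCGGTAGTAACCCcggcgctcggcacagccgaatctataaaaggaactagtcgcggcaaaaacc
Rxra: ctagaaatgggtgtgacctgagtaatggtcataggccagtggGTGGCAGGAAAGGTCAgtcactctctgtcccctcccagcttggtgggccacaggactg

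Levels below are log2 intensities after background correction and quantile normalization, with an offset of 16 added, so that a probe without signal lies near 4. The lowest detected level lay between 4.71 and 4.98 on the 6 arrays. The arrays were not equal in brightness: mir128 replicate A had 13277 detected probes and 373 as the upper quartile of its intensities, where the other arrays had 11589 to 12343 probes and 201 to 252. The mir128 arrays also differed more from each other than the scrambled pairs did, with an SD of the A minus B difference over all tested probes of 0.544, against 0.291 in shScr1 and 0.319 in shScr2. Of 10 smooth muscle markers, 9 had a probe: Tagln, Acta2, Smtn and Tpm2 were detected on all 6 arrays, Myh11 on both mir128 arrays alone, and Cnn1 on none. Of the 7 tested, 6 were higher with miR-128 and 0 lower (0 also at an unadjusted p under 0.05). Over all 9010 genes, 14.7% were higher and 12.8% lower. Myh11 and Lmod1 could be tested only because both mir128 arrays detected them. The summed linear level of the 7 was 12657 to 13632 in shScr1, 22578 to 22811 in shScr2 and 27040 to 34657 in mir128. The part of this shift in the results below was not tested. The arrays measure RNA of a whole culture, in which fewer cells of a type and less RNA per cell cannot be told apart.

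**Figure D1:**
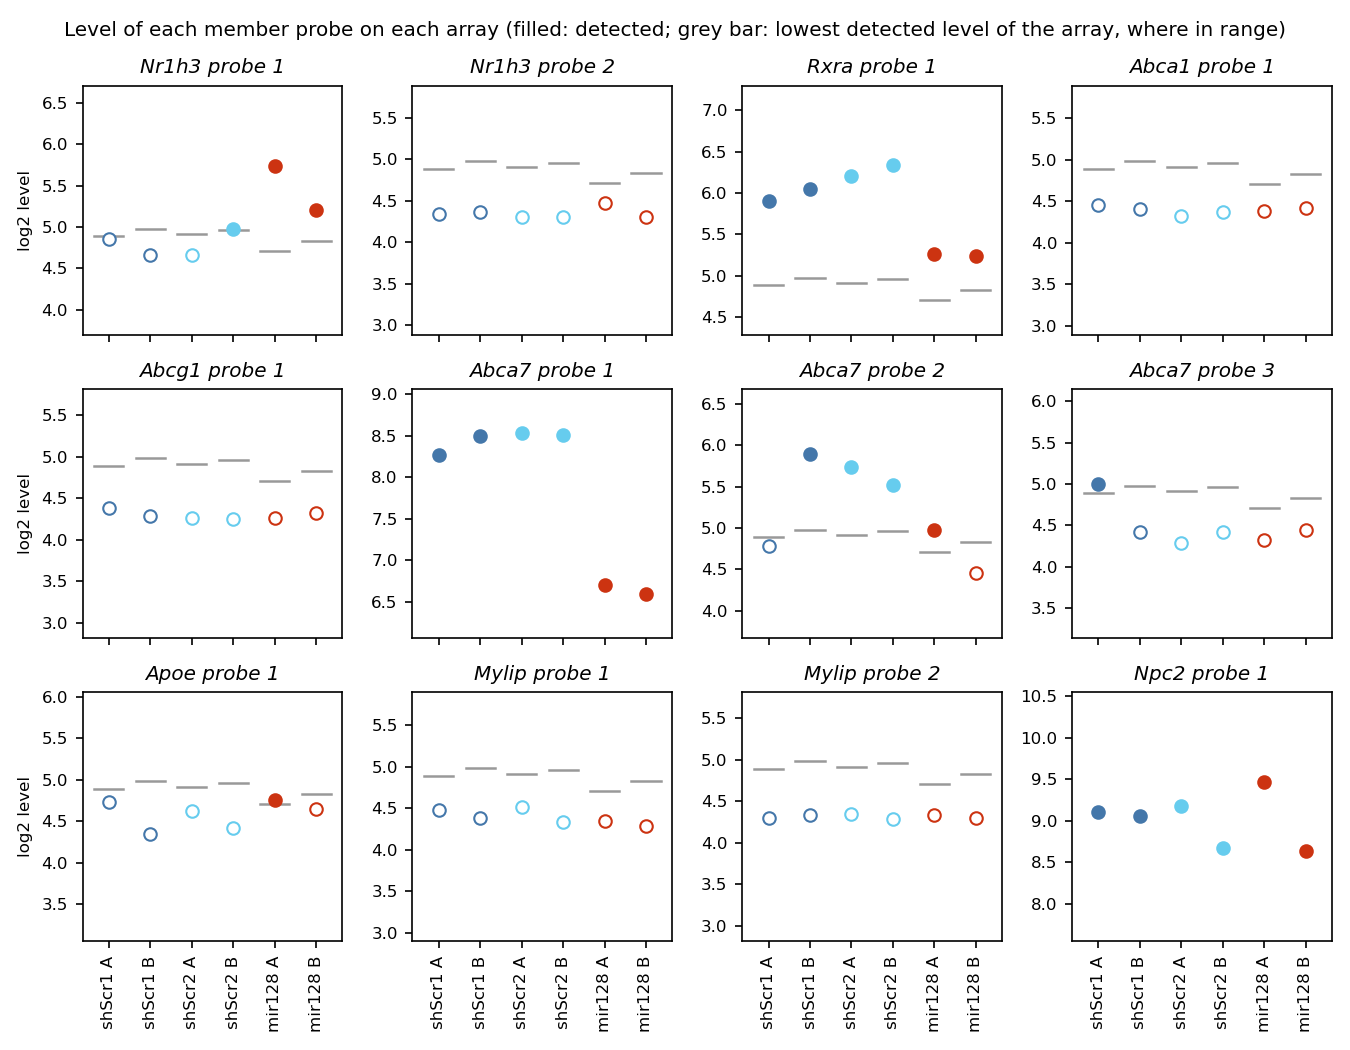
The log2 level (vertical axis) of each of the 12 member probes on each of the 6 arrays (horizontal axis), with detected values filled, undetected values open, and a grey bar at the lowest detected level of the array; each panel spans 3 log2 units. The mir128 arrays lie below all 4 scrambled arrays for Rxra (5.24 and 5.27 against 5.90 to 6.34) and Abca7 probe 1 (6.59 and 6.70 against 8.27 to 8.54), and the probes of Abca1, Abcg1 and Mylip stay below the bar on every array.

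Among the genes with a tested probe, the transporter gene Abca7 and the receptor gene Rxra were lower with miR-128. LXR alpha was narrowly higher on a dim probe that could be tested only because both mir128 arrays detected it. The Npc2 difference did not pass the test. A probe was tested where it was detected on at least 2 of the 6 arrays, which 5 of the 12 member probes (4 genes) and 51.9% of the 23978 probes with 1 gene symbol met. In the comparison of miR-128 with the mean of both scrambled groups (limma, Benjamini-Hochberg adjustment over 12452 probes), 1 member probe was higher and 2 were lower, against 13.4% higher and 13% lower, or 26.4% in either direction, over all probes tested. The median log2 difference was -0.76 over the 5 member probes and -0.02 over all probes. The 5 probes cover 4 genes, and -0.76 is the value of the second Abca7 probe, which did not pass. Both mir128 arrays lay beyond all 4 scrambled arrays for 3 of the 5, as they did for 46.1% of all probes tested. The higher probe, of Nr1h3, had its direction set by the rule for testing, so the counts that hold it are a description. When arrays were scaled to a common median in place of quantile normalization, the median over all probes moved to 0.17, 71.5% of all calls were higher in place of 50.7%, and 1 member probe, of Abca7, passed.

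Of the receptors, LXR alpha had a dim signal. Its brighter probe (ILMN_2663374) was at 4.86 and 4.66 in shScr1 replicates A and B, 4.66 and 4.98 in shScr2, and 5.74 and 5.21 in mir128. It was detected on both mir128 arrays, on shScr2 replicate B and on no shScr1 array, and the mir128 levels lay above all scrambled levels. The probe thus met the rule for testing only through the mir128 arrays, where it was high. The fitted log2 difference from both scrambled groups was 0.69 ± 0.20 (SE of limma; adjusted p = 0.0496), only just past the threshold of 0.05. With 3 of 4 scrambled arrays undetected, and these set to their lowest detected level, it was at least 1.45-fold higher. Against shScr1, where it had no detected array, it was at least 1.46-fold higher, the bound being set by the lowest detected level (adjusted p = 0.0762), and against shScr2 the log2 difference was 0.66 ± 0.24 (adjusted p = 0.0991). The difference was 0.42 without mir128 replicate A and 0.95 without replicate B (adjusted p = 0.157 and 0.0165), and over 17 alternative settings the call held in 4, with adjusted p from 0.0165 to 0.216. Leaving out either shScr1 array (adjusted p = 0.107 for A and 0.144 for B) or either shScr2 array (0.137 and 0.0834) also ended the call. The second Nr1h3 probe (ILMN_2668472) was detected on no array, with levels of 4.30 to 4.47.

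Rxra, the partner through which LXRs bind DNA, was lower with miR-128. Its probe (ILMN_2741479) was detected on every array, at 5.90 and 6.05 in shScr1, 6.20 and 6.34 in shScr2, and 5.27 and 5.24 in mir128. The groups did not overlap, and the mir128 replicates were the closest pair. The difference was -0.87 ± 0.14 on the log2 scale, 1.82-fold lower (adjusted p = 0.00825). Against shScr1 it was -0.72 ± 0.17 (adjusted p = 0.0286) and against shScr2 -1.01 ± 0.17 (adjusted p = 0.0111), while shScr2 was above shScr1 by 0.29 ± 0.17, which did not pass (adjusted p = 0.634).
The deposited intensity of this probe was 161.7 on mir128 replicate A and 130.4 on replicate B, against 139.8 to 152.4 on the scrambled arrays, so replicate A was the highest of the 6 before the arrays were matched. Replicate B was the lowest of the 6. The size of the fall against both scrambled groups varied with how the arrays, unequal in brightness, were matched. With median scaling it was -0.56 (adjusted p = 0.0643), and with the authors' deposited values, whose scale is compressed, it was -0.11 (adjusted p = 0.0523); it was -0.31 without background correction and -0.51 with an offset of 50, where it passed. It was below 0 under every alternative run. The call against shScr1 held in 7 of 17 alternatives. It was lost with median scaling (adjusted p = 0.157 in limma), without background correction (0.0995), with an offset of 50 (0.0521) and with the authors' values (0.154). It was also lost with trend and robust on (0.0594), with array weights (0.0636) and without any 1 of the 4 scrambled arrays (log2 differences -0.80, -0.64, -0.72 and -0.72). The call against shScr2 held in 13 of 17. It was lost with median scaling (adjusted p = 0.0788 in limma), with the authors' values (0.0517) and without shScr2 replicate A or B (log2 differences -1.08 and -0.95).

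**Figure D2:**
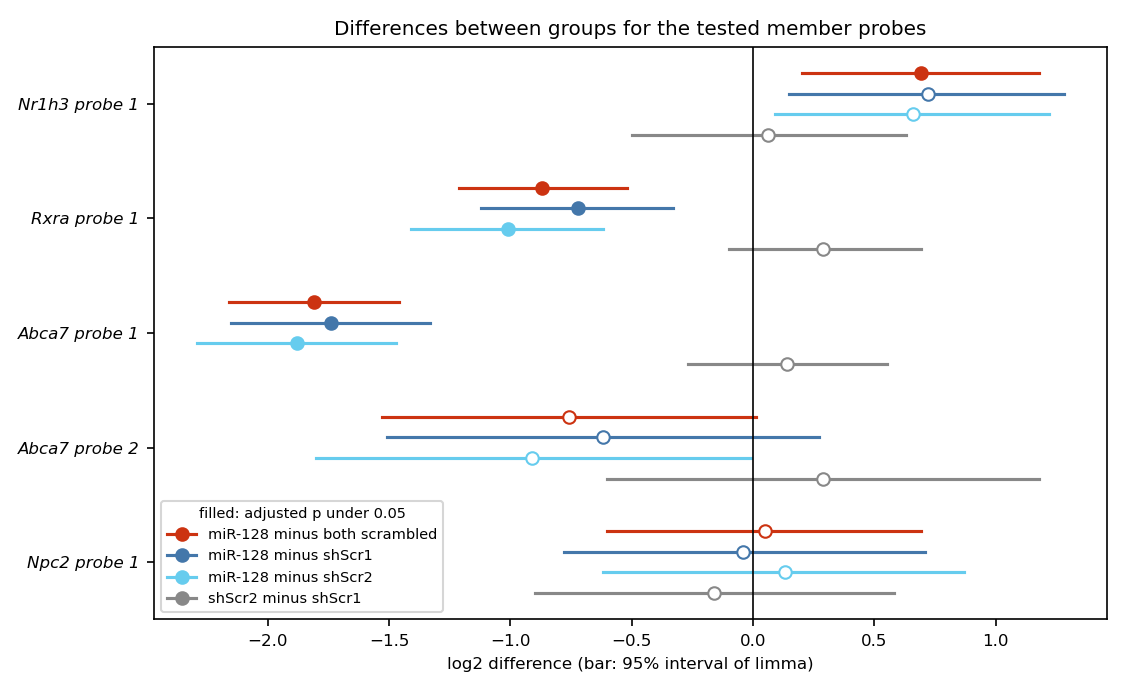
The log2 difference (horizontal axis) of the 5 tested member probes in 4 comparisons, with bars for the 95% interval of limma and filled points where the adjusted p was under 0.05. The intervals of Abca7 probe 1 and Rxra lie below 0 in all 3 comparisons with miR-128, those of Npc2 span 0, and no member probe passed between the scrambled groups.

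The efflux transporters that LXR is best known for were not measurable here. The Abca1 probe (ILMN_1226851) was at 4.46 and 4.41 in shScr1, 4.32 and 4.37 in shScr2, and 4.38 and 4.42 in mir128, with detection p-values of 0.308 to 0.805. The Abcg1 probe (ILMN_2441335) was at 4.38 and 4.28, 4.26 and 4.25, and 4.26 and 4.32 in the same order. Both were detected on no array, as were 40.5% of the probes with 1 gene symbol, and their intensities of 94.5 to 119.6 and 88.0 to 110.5 lay below the lowest detected intensity of the same array, which was 106.4 to 135.3. No fold change is given for them, and a difference between the groups was not detectable at this signal.

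Abca7, a relative of ABCA1 that exports phospholipid and takes part in phagocytosis, had the largest change among the tested member probes. Its brightest probe (ILMN_1221703) was at 8.27 and 8.50 in shScr1, 8.54 and 8.51 in shScr2, and 6.70 and 6.59 in mir128. Both mir128 arrays lay below every scrambled array, and each group's replicates lay close together. Its deposited intensities were 361 to 411 on the scrambled arrays and 276.6 and 185.4 on the mir128 arrays, lower already before normalization. The log2 difference was -1.81 ± 0.15, 3.50-fold lower (95% interval -2.16 to -1.46; adjusted p = 0.00109). It was -1.74 ± 0.17 against shScr1 (adjusted p = 0.00266) and -1.88 ± 0.17 against shScr2 (adjusted p = 0.00227), and the scrambled groups differed by 0.14 ± 0.17 (adjusted p = 0.865). The call held under all 18 alternatives, with differences from -1.87 to -0.64, the smallest with the authors' deposited values; it was -1.20 without background correction.

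The 3 Abca7 probes did not give the same picture. The second (ILMN_2896639) was at 4.78 and 5.89 in shScr1, 5.73 and 5.52 in shScr2, and 4.98 and 4.46 in mir128. It was undetected on shScr1 replicate A and mir128 replicate B, and the groups overlapped through shScr1 replicate A. Its difference of -0.76 ± 0.32 did not pass (adjusted p = 0.13), although it was -1.04 without shScr1 replicate A (adjusted p = 0.0467). The third (ILMN_2716039) was detected on shScr1 replicate A alone, at 5.00, and lay between 4.29 and 4.44 on the other 5 arrays. With the mean over the tested probes, Abca7 was at -1.29 (adjusted p = 0.00772). All 3 probes are annotated to the same transcript, and their places along it are unknown here.

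Apoe, which encodes the lipoprotein protein that accepts cholesterol from cells, stayed near background. Its probe (ILMN_1216042) was at 4.73 and 4.35 in shScr1, 4.62 and 4.42 in shScr2, and 4.76 and 4.64 in mir128. Its detection p-value passed on mir128 replicate A alone (0.0351), the brightest array, and mir128 replicate B lay within the range of the scrambled arrays. Mylip, the LXR target that encodes a ubiquitin ligase for lipoprotein receptors, had 2 probes (ILMN_2735102 and ILMN_2590339). Neither was detected on any array, with levels of 4.28 to 4.52 and 4.29 to 4.34.

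Npc2, a soluble lysosomal protein gene that hands cholesterol to the NPC1 membrane protein, was detected on every array. Its probe (ILMN_2744380) was at 9.11 and 9.06 in shScr1, 9.18 and 8.67 in shScr2, and 9.47 and 8.63 in mir128. The highest and the lowest of the 6 levels were both mir128 arrays, so the groups overlapped. The difference was 0.05 ± 0.27, with a 95% interval of -0.60 to 0.69 (adjusted p = 0.916), so changes inside that interval could not be told from none. Without mir128 replicate A it was -0.37 and without replicate B 0.46, neither past the threshold.

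The scrambled groups, set against each other, gave no call among the 5 member probes (limma, 0 at an adjusted p under 0.05 and 0 at an unadjusted p under 0.05), where 0.0803% of all probes passed. With 1 scrambled group at a time as the control, the same 2 probes, of Abca7 and Rxra, were lower. This compares with 10% of all probes lower and 20.3% called against shScr1, and with 8.89% lower and 18.6% called against shScr2. Both comparisons share the mir128 arrays and are not independent.

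**Figure D3:**
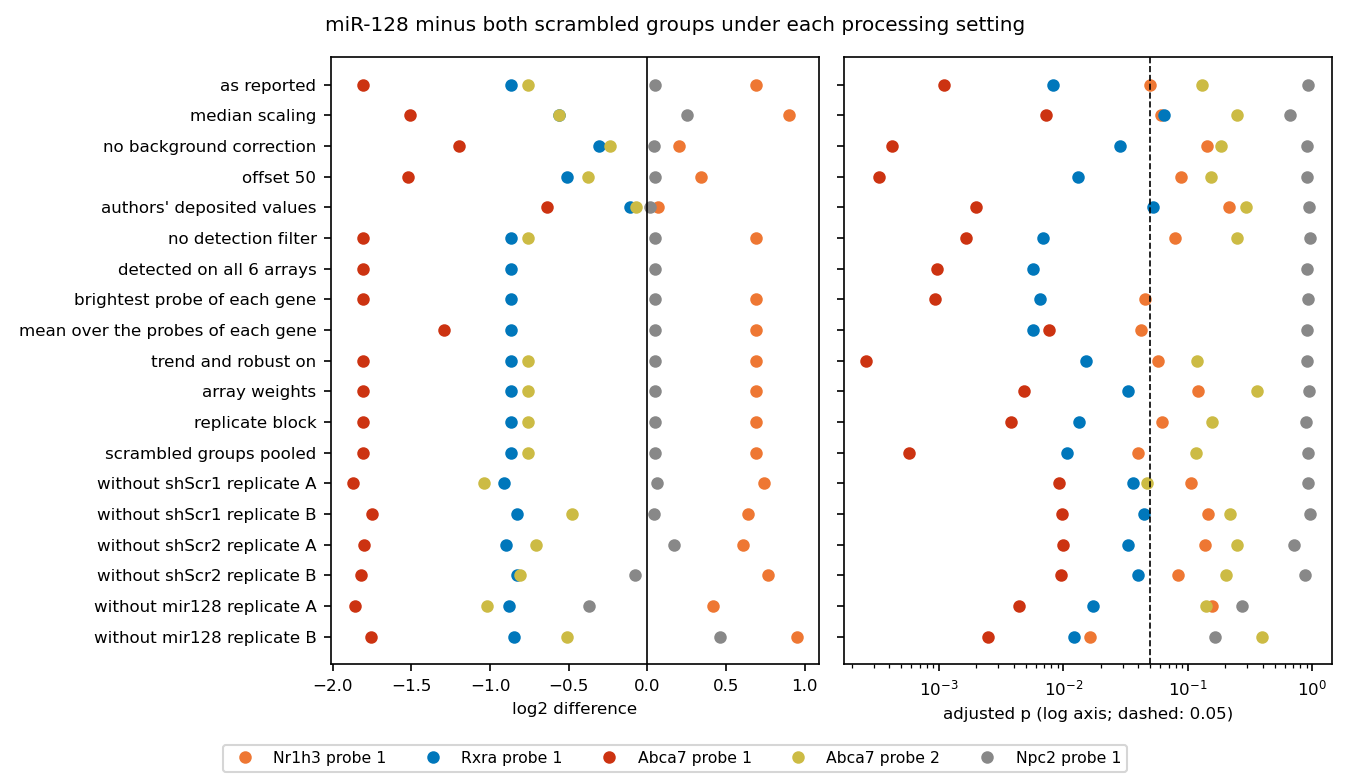
The difference between miR-128 and both scrambled groups for the 5 tested member probes under each processing setting, as the log2 difference (left) and the adjusted p on a log axis (right, dashed line at 0.05); under the mean over probes, Abca7 probe 1 stands for the gene. Abca7 probe 1 stays left of the dashed line throughout, Rxra crosses it with median scaling (0.0643) and the authors' values (0.0523), and Nr1h3 lies on or right of it in most settings.

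Among further genes of sterol handling, 3 of 5 tested lipoprotein receptor genes rose and 5 of 9 tested genes of the sterol sensing list fell. Their medians, and that of genes known as LXR targets, moved with the choice of scrambled control. Against shScr1 and shScr2 they were 0.65 and 1.1 for the receptors, -1.07 and -0.29 for sterol sensing, and -0.57 and 0.19 for LXR targets. In all, 6 lists with 82 genes were examined, with 1 probe a gene, the brightest tested. Of 52 genes tested, 12 were higher and 8 lower with miR-128, or 38.5%, against 14.7% higher, 12.8% lower and 27.5% in either direction over all 9010 genes. Among the higher genes, Sorl1, Ch25h and Cyp27a1 met the rule for testing only through the mir128 arrays. Their direction was thus set by that rule, and the counts that hold them are a description.

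In the list of LXR and RXR partners and coregulators, 1 of 3 tested genes was higher and 1 lower (list median -0.12, or 0.19 with median scaling). Rxrb, the beta form of the retinoid X receptor, was at 10.65 and 10.79 in shScr1, 10.61 and 10.71 in shScr2, and 9.82 and 10.20 in mir128. It was thus lower on both mir128 arrays than on any scrambled array, by -0.68 ± 0.17 (adjusted p = 0.0276), a call that held in 11 of 18 alternatives. It was lost without any 1 of the 4 scrambled arrays, without mir128 replicate A, with median scaling (adjusted p = 0.0649) and with array weights (0.072). Ncoa1, a coactivator of nuclear receptors, was 1.85-fold higher (0.89 ± 0.17, adjusted p = 0.0139). Its call was lost without replicate A of shScr1 or of shScr2 and with array weights (adjusted p = 0.0595). Med1 did not pass, and Rxrg, Ncoa2, Ncoa3 and Nrip1 had no probe that could be tested.

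Of 8 tested genes in the list of further LXR targets, 2 were higher and 0 were lower (0 by limma after adjustment, 3 at an unadjusted p under 0.05), with a list median of -0.28. Against shScr1 alone, 0 were higher and 2 lower, and against shScr2 alone 2 were higher and 0 lower, with medians of -0.57 and 0.19. Lpl, the lipoprotein lipase, was at 8.19 and 8.22 in shScr1, 6.58 and 6.62 in shScr2, and 8.44 and 9.60 in mir128. It was above both groups, by 2.42 against shScr2 (adjusted p = 0.0084) and by 0.82 against shScr1, where it did not pass (adjusted p = 0.151). Against both groups Lpl was at 1.62 ± 0.31 (adjusted p = 0.0129), and at 2.20 and 1.04 without mir128 replicate A and B, and the call was lost with the scrambled groups pooled (0.073) and with the authors' values (0.73; adjusted p = 0.0596). Pltp, the phospholipid transfer protein gene, was likewise at 1.46 against shScr2 (adjusted p = 0.0123) and 0.37 against shScr1 (adjusted p = 0.331). Against both groups its call was lost without replicate A of shScr1, of shScr2 or of mir128 or replicate B of shScr2 (adjusted p = 0.0787, 0.0769, 0.0901 and 0.0505). It was also lost with the mean over its probes (log2 difference 0.43, adjusted p = 0.0571), array weights (0.0894) and pooled scrambled groups (0.128). Srebf1, the LXR-driven regulator of fatty acid synthesis, was at -0.19 ± 0.18 (adjusted p = 0.481). It was at -0.58 against shScr1 and 0.21 against shScr2, so the sign depended on the control, and neither passed (adjusted p = 0.0964 and 0.526). Its levels were dim, at 5.77 and 5.84 in shScr1, 4.87 and 5.17 in shScr2, and 5.43 and 5.01 in mir128, detected on 5 arrays. Between the scrambled groups, neither Lpl nor Srebf1 passed the threshold in limma (adjusted p = 0.193 and 0.254). Their log2 differences, shScr2 minus shScr1, were -1.61 and -0.79, so a missed threshold here does not mean equal levels.

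In the list of further efflux transporters and lipoprotein factors, 3 of 10 tested genes were higher and 0 lower (0 also at an unadjusted p under 0.05), with a median of 0.04. Clu, which encodes the secreted chaperone clusterin, also called apolipoprotein J, was at 8.61 and 8.55, 8.59 and 8.62, and 11.79 and 11.22 in shScr1, shScr2 and mir128. It was 7.51-fold higher (2.91 ± 0.19; adjusted p = 0.000584) and passed in all 18 alternatives. The other 2 genes that rose, Cyp27a1 and Ch25h, encode enzymes that make oxysterols, the ligands of LXR. Cyp27a1, the mitochondrial sterol hydroxylase, was at 7 and 6.20 in mir128 and was detected on 1 shScr1 array and on no shScr2 array. With the undetected scrambled arrays at their lowest detected level it was at least 2.90-fold higher than both groups (adjusted p = 0.00776), and at least 3.16-fold higher than shScr2. Ch25h, a cholesterol hydroxylase of the endoplasmic reticulum, was detected on both mir128 arrays and no scrambled array, and was at least 1.33-fold higher (adjusted p = 0.0112), a call lost without shScr1 replicate A (0.0533) or B (0.0516), without background correction (log2 difference 0.22, adjusted p = 0.0742) and with the authors' values (log2 difference 0.07, adjusted p = 0.135). Scarb1, the receptor for high-density lipoprotein, was at 0.00 ± 0.20 (adjusted p = 0.993), detected on 3 arrays.

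The list of intracellular sterol transport and storage had 3 of 17 tested genes higher and 2 lower, with a median of 0.13. Stard4, a cytosolic sterol carrier gene that responds to low cholesterol, was 2.60-fold lower (-1.38 ± 0.18; adjusted p = 0.00407). Scp2, sterol carrier protein 2, was at 0.67 ± 0.16 (adjusted p = 0.0264), and Gramd1b, which carries cholesterol from the plasma membrane to the endoplasmic reticulum, at 0.58 ± 0.14 (adjusted p = 0.0293), both higher. Neither passed without any 1 of the 4 scrambled arrays, nor did Scp2 without mir128 replicate A. With array weights both calls were lost (adjusted p = 0.0707 for Scp2 and 0.0986 for Gramd1b). That of Gramd1b was also lost with trend and robust on (0.0541), and each held in 12 of 18 alternatives.

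Of 5 tested lipoprotein and scavenger receptor genes, 3 were higher and 0 lower (0 also at an unadjusted p under 0.05). The list median was 1.04, or 0.64 with Sorl1 at its bound. It was 0.52 with an offset of 50, 0.33 without background correction, 0.11 with the authors' values, 0.55 over genes detected on all 6 arrays, 0.53 without mir128 replicate A and 0.03 without the detection filter. Vldlr, a substrate of MYLIP, was at 8.72 and 8.65 in shScr1, 7.72 and 7.66 in shScr2, and 9.35 and 9.32 in mir128. It was 2.21-fold higher (1.15 ± 0.14; adjusted p = 0.00314), by 0.65 against shScr1 and 1.64 against shScr2. Sort1, the sorting receptor sortilin, was 4.58-fold higher (2.20 ± 0.14; adjusted p = 0.00051). Sorl1, of the same family, was detected on both mir128 arrays and no scrambled array and was at least 1.56-fold higher (adjusted p = 0.0364), a call lost without any 1 of the arrays except mir128 replicate B (adjusted p from 0.0542 to 0.101). The Sorl1 call held in 6 of 17 alternatives and was also lost with median scaling, without background correction, with an offset of 50, with the authors' values, without the detection filter and with array weights (adjusted p from 0.053 to 0.156). Lrp8, another substrate of MYLIP, had no probe under its symbol in the annotation used and was not analysed here.

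Sterol sensing genes had 5 of 9 tested members lower and 0 higher (1 at an unadjusted p under 0.05), with a median of -0.68. Those with the smallest adjusted p were Srebf2, the regulator of cholesterol synthesis and uptake, and the synthesis enzymes Sqle, squalene epoxidase, and Idi1, isopentenyl diphosphate isomerase. Sqle was at -1.10 ± 0.14 (adjusted p = 0.00373) and Idi1 at -1.10 ± 0.22 (adjusted p = 0.014); Idi1 was lost without shScr1 replicate B (0.0524) or mir128 replicate A (0.0549), with the authors' values (log2 difference -0.13, adjusted p = 0.0736) and with array weights (0.0605). Srebf2 was at 8.98 and 9.26, 8.66 and 8.51, and 7.61 and 7.57 in shScr1, shScr2 and mir128, 2.40-fold lower (adjusted p = 0.00333). The median of this list was -1.07 against shScr1 and -0.29 against shScr2, with 5 and 3 genes lower.

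**Figure D4:**
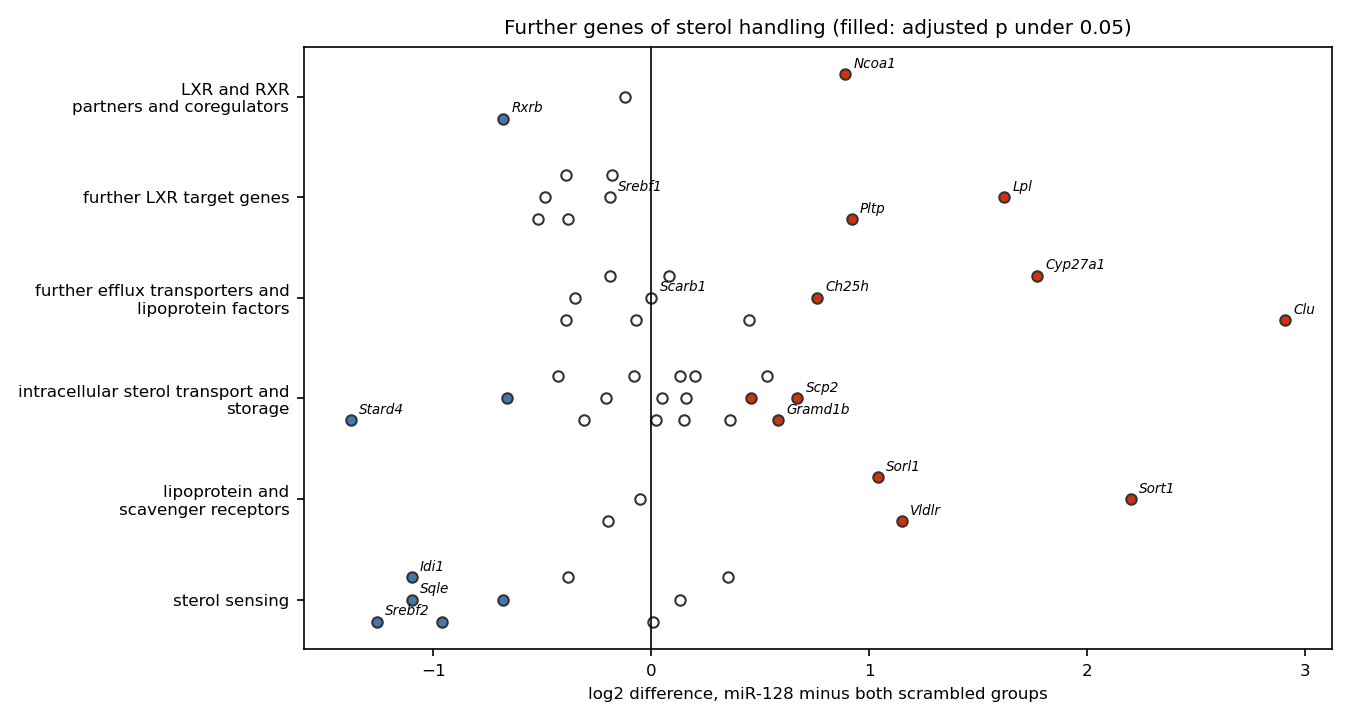
The log2 difference between miR-128 and both scrambled groups (horizontal axis) for the 52 tested genes of 6 lists of sterol handling (rows), 1 point a gene, filled where the adjusted p was under 0.05. Clu (2.91) and Sort1 (2.20) lie farthest to the right, Stard4 (-1.38) and Srebf2 (-1.26) farthest to the left.

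LXR alpha, ABCA1, ABCG1 and apolipoprotein E are abundant in macrophages, so macrophage markers were examined. Of 12 markers, 10 had a probe and 8 of those were detected on no array, among them Adgre1, Ptprc, Itgam and C1qa. The 2 tested moved opposite ways, with Lyz2 higher (1.36; adjusted p = 0.0116) and Cd14 lower (-1.10; adjusted p = 0.00842). Their summed linear level was 423 to 434 in shScr1, 581 to 590 in shScr2 and 284 to 320 in mir128. Of 6 adipocyte markers only Pparg was tested, and it was higher (0.84; adjusted p = 0.0242), while Adipoq, Fabp4, Plin1 and Cidec were detected on no array. Its linear level was 90 to 113 in shScr1, 126 to 164 in shScr2 and 193 to 241 in mir128. Of 7 fibroblast markers, 6 had a probe and 5 were tested, with Dcn higher (1.04; adjusted p = 0.00762) and Pdgfra lower (-0.97; adjusted p = 0.0174). Dcn was at 2.23 against shScr2 and -0.15 against shScr1, and differed between the scrambled groups (adjusted p = 0.0191). Their summed level was 2797 to 3207 in shScr1, 1475 to 1673 in shScr2 and 2161 to 2828 in mir128. Their part in the levels of the member genes was not tested.

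For likeness of pattern, the 6 levels of a gene were centred and the Euclidean distance was taken over 7055 genes detected on all 6 arrays. Abca1 and Apoe, for which this was planned, were not detected on all 6 arrays. For the 3 members that were, a choice made after their detection was seen, the nearest genes to Abca7 were Rnaseh2c, Uqcr10 and Mmp23 (0.261, 0.265 and 0.295 log2 units). Nearest to Rxra were Lnx2, Tasp1 and Mrps7 (0.105, 0.129 and 0.138). Nearest to Npc2 were Dazap2, Klhl7 and Rtcb (0.126, 0.184 and 0.199). With 6 arrays in 3 groups these distances are a description only.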

How the data were processed

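RNA of 6 cultures was measured on Illumina bead arrays. The deposited non-normalized table holds, per the file headers, a linear intensity and a detection p-value for each of 25697 probes and array. A second deposited table holds values that the authors had processed to a log2-like scale, as its range shows (7.63 to 14.96, median 7.77 on each array), with the transform and centring unknown. Set against the same array's intensities, over 4145 probes above 500 and centred by probe, its columns gave correlations of 0.972 to 0.986, and at most 0.838 for another array. Limma, lumi and GenomeStudio 2011.1 are listed in the submitters' processing notes, without roles.

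Here, intensities were processed with neqc in limma 3.58.1 (R 4.3.3; background from the detection p-values, offset 16, log2, quantile). Probes with 1 gene symbol (23978; none had several and 1719 had none) that were detected on at least 2 arrays were fitted with lmFit, 1 mean for each of 3 groups, and eBayes (residual df 3, prior df 3.66), without a block. P-values were two-sided and adjusted by Benjamini-Hochberg over 12452 probes. Values after ± are standard errors of limma. For probes undetected on all arrays of a group, a lower bound on the fold was taken against the higher of the probe's own level and the lowest detected level of each array. Such a bound covers the undetected level only and not the spread between replicates. A symbol was checked through its Entrez number for 23962 probes and 0 changed. Promoter and microRNA sequences are from RefSeq. Figures were drawn with matplotlib 3.10.9. The fit was tested on simulated data.

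Genes named were all members, up to 3 genes a list with the smallest adjusted p among those called, and Vldlr, Lrp8, Srebf1, Srebf2, Rxrb and Scarb1; genes named for likeness of pattern to Abca7, Rxra and Npc2, and markers, are given besides. One further item is not reported here. The members and lists were chosen with earlier results of these data known. The replicates are called biological by the submitters, without saying what was separate, so p-values measure the spread between these cultures. Alternatives covered normalization, background, offset, the authors' values, detection filter, probe rule, spread model, array weights, replicate block, pooled controls and each array left out.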

Additional observations from a re-analysis of the deposited data

How the results depend on the processing

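Of 329 values of member probes under alternatives, 287 kept their direction and their side of the threshold, 29 lost a call, 3 gained one and 10 turned sign without a call on either side. For the genes of the further lists the numbers were 262, 50, 0 and 7 of 319. The signs that turned were those of Npc2 against shScr1 (0.11 with median scaling) Srebf1 (0.07 with median scaling) and Scarb1 (0.08 with median scaling, 0.00 without background correction); and, with 1 array left out, Npc2 between -0.37 and 0.46 against both scrambled groups, between -0.45 and 0.38 against shScr1 and between -0.29 and 0.55 against shScr2, Npc2 between -0.42 and 0.09, Nr1h3 between -0.10 and 0.22 and Abca7 probe 2 between -0.27 and 0.84 between the scrambled groups, Srebf1 between -0.40 and 0.02, and Scarb1 between -0.15 and 0.14. The 3 member probes called against both scrambled groups became 1 with median scaling and 1 with the authors' deposited values, and 2 to 3 without 1 array. The 2 called against shScr1 became 1 with median scaling, without background correction, with offset 50, with the authors' values, with trend and robust on, and with array weights, and 1 to 3 without 1 array; those against shScr2 became 1 with median scaling and the authors' values, and 1 to 3 without 1 array. Over all probes, the 3292 called became 1692 with array weights and 1378 to 4507 without 1 array (1378 to 1580 without any 1 scrambled array). Against shScr1, 2527 became 1576 with median scaling, 1632 with array weights and 202 to 4250 without 1 array. Against shScr2, 2310 became 1472 with array weights and 230 to 3896. Between the scrambled groups, 10 became 5 with median scaling, 36 without background correction, 24 with offset 50, 21 with the authors' values, 38 with trend and robust on, 430 with array weights, 1 with the replicate block, and 0 to 155 without 1 array (0 by limma without any 1 scrambled array, with 644 to 763 at an unadjusted p under 0.05). The 20 genes called over the further lists became 9 with array weights and 9 to 24 without 1 array. A fit that leaves out 1 array assumes that the lone array varies like the other groups, and has fewer degrees of freedom; the other causes were not tested. Replicates share only a letter: same-letter deviations correlated at 0.112, 0.127 and 0.156 over 2 letters, and with the replicate block 2 member probes were called against both scrambled groups, Nr1h3 being lost (adjusted p = 0.0617), with 3323 probes called in all. Signal over background limits the probes of Abca1, Abcg1, Apoe and Mylip, the second of Nr1h3 and the third of Abca7, which were not tested.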
